A study of Mus musculus with 9 samples.

Results

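The transcriptome of BV- cells under NRF1 overexpression (NRF1 OE) was compared with that of BV- cells carrying an empty vector (Ctrl). All libraries labelled BV- were taken, 3 with NRF1 OE and 2 with Ctrl, of 9 RNA-seq libraries in the series. The cells came from BVSC, a mouse pluripotent stem cell (PSC) line in which mVenus reports Blimp1 (the reporter abbreviated BV) and CFP reports Stella. PSCs were differentiated as embryoid bodies, floating aggregates in which cells of several lineages form, and cells with (BV+) and without (BV-) the Blimp1 reporter were separated by flow cytometry. The BV+ libraries, 2 per condition, entered the fit, its gene filter and its estimate of the spread, and otherwise served as the other population. In NRF1 OE cells, mouse Nrf1 cDNA stood in a p20 vector that responds to doxycycline, and Ctrl cells held the same vector without insert. The protocol that all samples share gives doxycycline at 1.5 μg/mL from day 2 to day 5 of differentiation. The day on which BV- cells were sorted, the number of clones and the Nrf1 protein level are not given in the sources used here. Each library is a bulk sample, so fewer cells of a type and less RNA per cell cannot be told apart. Nothing in the labels states that the libraries of a group came from separate cultures, so p-values measure the spread between these libraries, which may be technical.

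NRF1 (nuclear respiratory factor 1) is a transcription factor that binds GC-rich palindromic sites, often in promoters of housekeeping genes. Its best known targets are nuclear genes for the respiratory chain and for transcription of the mitochondrial genome, and it works alongside the GABP factor and PGC-1 coactivators. Primordial germ cells (PGCs) are the embryonic precursors of eggs and sperm, and their specification turns on Prdm1 (Blimp1), Prdm14, Tfap2c and Dppa3 (Stella). BV- cells are the cells of the same aggregates that do not carry the Blimp1 reporter signal.

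Total counts were 16935220, 13702162 and 17443624 in the NRF1 OE libraries and 15723226 and 18682136 in the Ctrl libraries. Levels are given as CPM, a library's reads of a gene scaled to a common library total, after TMM scaling. Nrf1 itself was at 119, 122 and 126 CPM with NRF1 OE and at 99.1 and 105 CPM with Ctrl. Every NRF1 OE library was above both Ctrl libraries, an order that 29.4% of all genes tested shared. The difference was 0.26 ± 0.10 on the log2 scale (fold change ± SE), or 1.20-fold. The adjusted p was 0.0718 in edgeR's quasi-likelihood test, and 0.138 in edgeR on the 5 BV- libraries alone. The rise was thus small, and Nrf1 did not pass the threshold of 0.05. With offsets for each library's GC and length trend, described below, its log2 fold change was 0.52 with an adjusted p of 0.0309 in edgeR. Any reads of the inserted cDNA would be counted together with the endogenous gene.

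The label somatic was set beside the levels of lineage markers. The pluripotency factors were abundant in every BV- library. Pou5f1, the core factor of pluripotent cells, was at 1113, 1298 and 1336 CPM with NRF1 OE and at 962 and 1034 CPM with Ctrl. Nanog lay between 453 and 495 CPM over the same libraries and Sox2 between 547 and 626 CPM. The summed level of 6 pluripotency markers was 2946 to 3179 CPM over the 5 BV- libraries. The summed level of 8 mesoderm markers was 10.6 to 18.3 CPM, and that of 8 endoderm markers was 40.5 to 84.1 CPM. Sums were larger for 4 neuroectoderm markers (87.2 to 121 CPM) and 4 epiblast markers (409 to 575 CPM). For 7 blood and endothelial markers the sum was 159 to 172 CPM, mostly reads of Pecam1. For the reporter gene, Prdm1 was at 58.6 and 57.3 CPM in BV- Ctrl cells and at a mean of 60.1 CPM in BV+ Ctrl cells. The high pluripotency sum therefore went against a purely somatic identity, while a mixture with differentiated cells cannot be told from bulk samples. The sample labels give the cell type as pluripotent stem cells, and the cells are called BV- cells here.

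Between BV- NRF1 OE and BV- Ctrl cells, nuclear respiratory chain, ribosomal protein and proteasome genes were called higher more often than lower. Zfp genes and the listed chromatin regulators were called lower more often than higher. These differences shrank with the GC and length offsets described below. The median log2 fold change went from -0.41 to -0.09 for Zfp genes and from -0.59 to -0.17 for chromatin regulators. For respiratory complex I genes it went from 0.44 to 0.16. Of 16903 genes tested, 1731 were higher in NRF1 OE (10.2%) and 1179 were lower (6.98%) at an adjusted p under 0.05 in edgeR. The changes were small. The median absolute log2 fold change was 0.53 among the genes called higher and 0.75 among those called lower, and 96 and 226 of them changed by more than 1 on the log2 scale. At the study's threshold, which takes genes that moved by more than 0.58 on the log2 scale at an unadjusted p under 0.05, 969 genes were higher (5.73%) and 1734 were lower (10.3%). The smallest adjusted p was 0.0317, shared by many genes, so every call lay close to the threshold. Without the first Ctrl library edgeR called 0 genes, with 2821 at an unadjusted p under 0.05. Without the second Ctrl library it called 1 gene, and without the third NRF1 OE library 27 higher and 8 lower. Fitting the 5 BV- libraries alone left 0 genes called by edgeR, with 5594 at an unadjusted p under 0.05, while DESeq2 on those libraries called 1248 higher and 1160 lower. The bar chart of called genes by setting shows these counts.

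**Figure D1:**
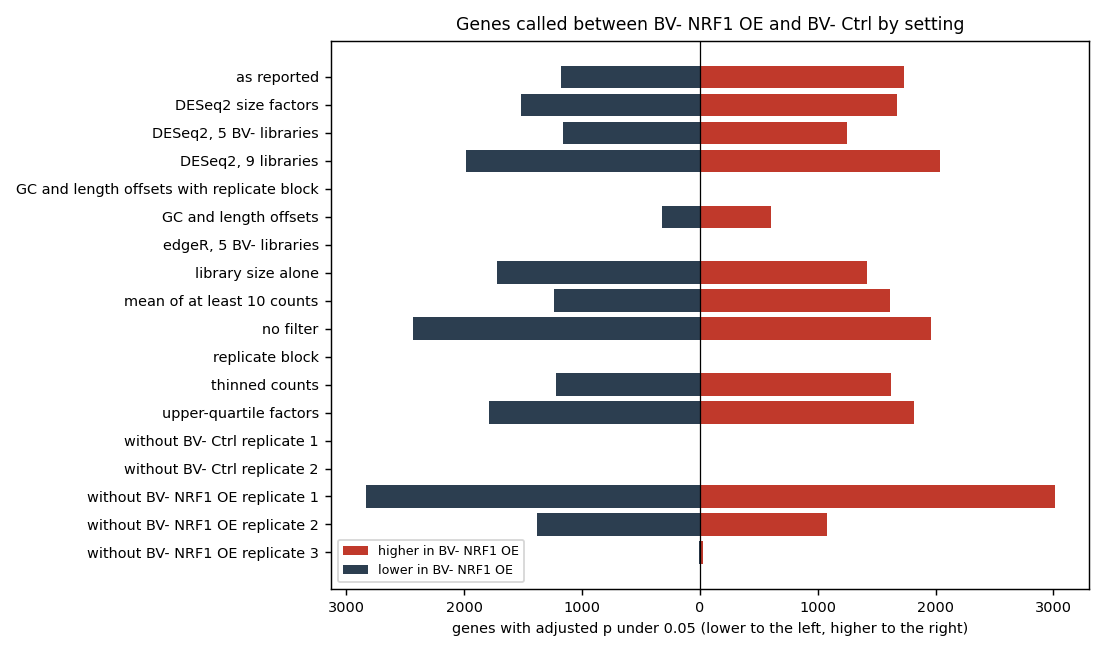
Genes called higher (right) and lower (left) in BV- NRF1 OE than in BV- Ctrl at an adjusted p under 0.05, as reported and under each alternative. Calls vanish or nearly vanish without either Ctrl library, without the third NRF1 OE library, with the replicate block (with or without offsets) and with edgeR on 5 libraries, and lie between 320 and 3013 per direction elsewhere.

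The libraries also differed in a property of the RNA that lay along the same split. For each library, the deviation of 12702 genes from their mean over all 9 libraries was correlated with transcript GC content. The values describe genes within a library and carry no test, since genes are not replicates. The rank correlation (Spearman) was 0.058, 0.695 and 0.58 in the BV- NRF1 OE libraries and -0.594 and -0.515 in the BV- Ctrl libraries. All NRF1 OE libraries thus gave more reads to GC-rich genes than both Ctrl libraries. In the decile of lowest GC content the median log2 fold change was -0.55 and 23.1% of genes were called lower. In the highest decile it was 0.42 and 27.7% were called higher. Genes called higher had a median GC content of 55.6% and a median transcript length of 2322 bases, against 42.9% and 4732 bases for genes called lower. A second fit therefore gave each library an offset for its trend over GC content and length. It called 603 genes higher (3.62%) and 320 lower (1.92%) of 16662, among them 355 of the 1731 and 225 of the 1179 genes called without offsets. The sign of the fold change stayed the same for 1639 of 1718 genes called higher and for 1133 of 1172 called lower. Such a trend and a change that falls on GC-rich genes cannot be told apart in these libraries, and counts of this offset fit stand beside the groups of genes.

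**Figure D2:**
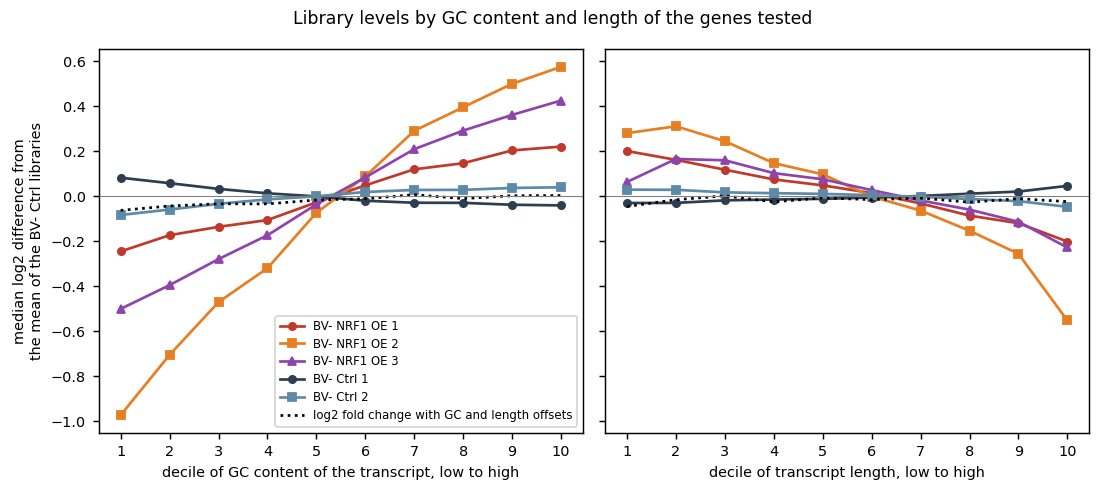
Median log2 difference of each BV- library from the mean of the BV- Ctrl libraries, by decile of transcript GC content (left) and transcript length (right). The second NRF1 OE library runs from -0.97 in the lowest GC decile to 0.58 in the highest, the others less steeply, and the dotted line shows the median fold change near 0 after GC and length offsets.

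Nuclear genes of the respiratory chain were higher in NRF1 OE. Of 37 complex I genes, which encode the NADH dehydrogenase, 20 rose and 0 fell, with a median log2 fold change of 0.44 beside 0.01 over all genes tested. Complexes II and III had 6 of 14 genes higher and complex IV, the cytochrome c oxidase, 6 of 13, with 0 lower in either and medians of 0.39 and 0.35. Of 18 ATP synthase genes tested, 8 rose and 0 fell, with a median of 0.43. The second NRF1 OE library stood highest in each of these groups, and the other NRF1 OE libraries were close together between 0.30 and 0.36 above the Ctrl mean.

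Ndufb8, a complex I subunit, was at 144, 172 and 152 CPM with NRF1 OE and at 101 and 113 CPM with Ctrl, a log2 difference of 0.54 ± 0.12 (SE). Uqcrc1, a core protein of complex III, was at 342, 440 and 385 CPM against 241 and 258 CPM, a difference of 0.64 ± 0.12. Atp5md, a small subunit of ATP synthase, was at 72.6, 82.0 and 66.0 CPM against 45.7 and 49.3 CPM, a difference of 0.63 ± 0.13. For all of these genes the groups did not overlap and the adjusted p was 0.0317 in edgeR. Over all genes tested, every NRF1 OE library lay above both Ctrl libraries for 29.4% and below both for 27.6%, so groups that do not overlap are common here. Their differences remained with GC and length offsets, at 0.63 for Ndufb8, 0.37 for Uqcrc1 and 0.98 for Atp5md, each with an adjusted p of 0.0309 in edgeR. Cyc1 (cytochrome c1) and Cox4i1 (a complex IV subunit), by contrast, rose by 0.54 and 0.63 without offsets and stood at 0.05 and 0.11 with them, past the threshold only without. With offsets, 8 complex I genes, 3 of complexes II and III, 3 of complex IV and 6 of ATP synthase were called higher, and 0 lower. Their medians were then 0.16, 0.24, 0.28 and 0.23.

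Genes encoded in the mitochondrial genome were read as a group of their own. Of 13 tested, 0 were called by edgeR in either direction, 2 had an unadjusted p under 0.05, and DESeq2 on the 5 BV- libraries called 0. The median log2 fold change was -0.16 with 3 of 13 above 0, and 0.18 with 11 of 13 above 0 with offsets, so the direction turned between the fits. Its difference from the nuclear subunits was not tested. mt-Nd5, a complex I subunit, was at 3268, 2713 and 2874 CPM with NRF1 OE and at 3436 and 3920 CPM with Ctrl, with an adjusted p of 0.0735 in edgeR. Among 18 factors that copy and express mitochondrial DNA, 1 rose (5.56%) and 2 fell (11.1%), beside 10.2% and 6.98% of all genes tested. With offsets 1 of these factors rose and 0 fell. Polg, the mitochondrial DNA polymerase, was at 229, 301 and 250 CPM against 192 and 192 CPM. Tfam, which packages and transcribes mitochondrial DNA, was at 97.3, 86.8 and 89.7 CPM against 117 and 115 CPM. All NRF1 OE libraries were below both Ctrl libraries, an order that 27.6% of all genes tested shared. Tfb2m, the mitochondrial transcription initiation factor, fell by 0.55 on the log2 scale. Polg was still called with offsets (0.45, adjusted p = 0.0396 in edgeR), while Tfam and Tfb2m were at -0.05 and -0.25 and not called.

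**Figure D3:**
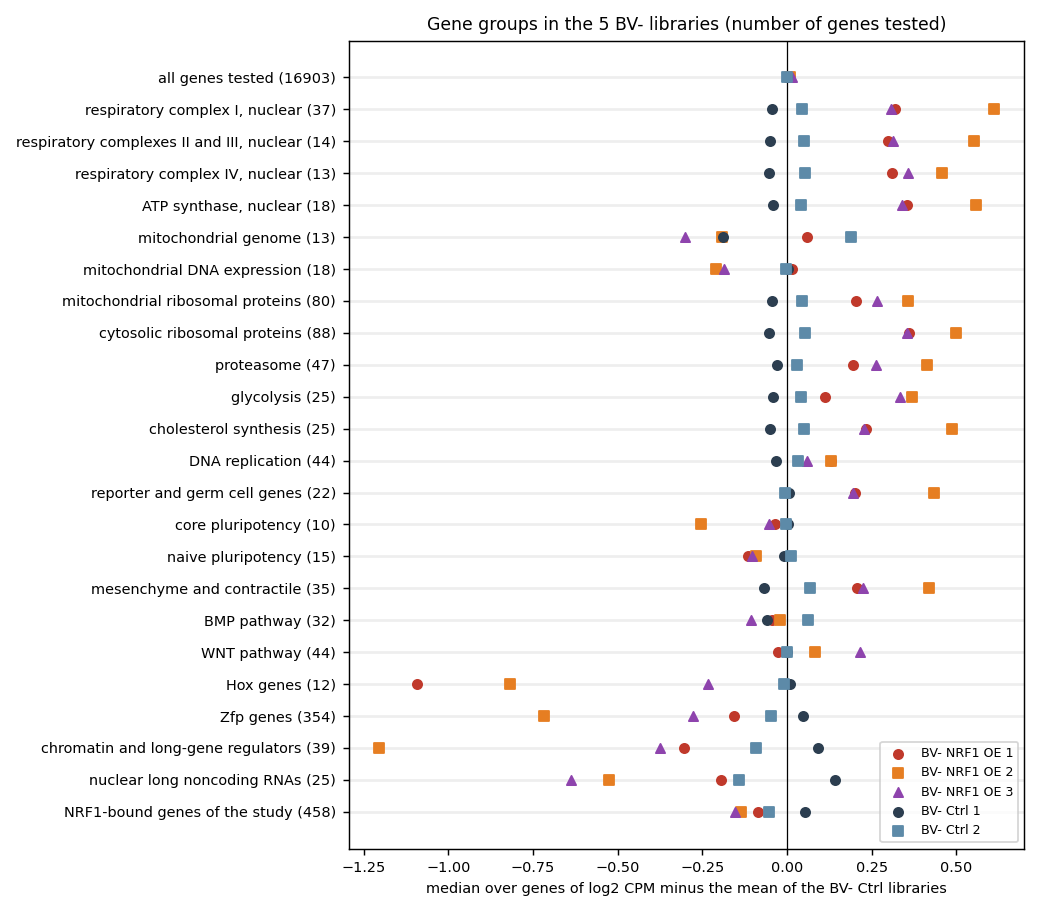
Median over the tested genes of each group of log2 CPM minus the mean of the BV- Ctrl libraries, 1 point per BV- library, with the number of genes in parentheses. Nuclear respiratory, ribosomal and proteasome groups lie to the right in all 3 NRF1 OE libraries, and Hox, Zfp and chromatin groups to the left, the second NRF1 OE library farthest out in most.

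Of 11 genes of the NRF1 network, 1 rose (9.09%) and 2 fell (18.2%), beside 10.2% and 6.98% of all genes tested. Gabpa, the DNA-binding subunit of GABP, was at 100, 47.7 and 78.8 CPM with NRF1 OE and at 148 and 127 CPM with Ctrl, a log2 difference of -0.86 ± 0.23 (SE). Sp1, a GC-box binding factor, fell by 0.57 on the log2 scale, and the nuclear receptor Esrrb rose by 0.39. None of the 3 was called with offsets, where Gabpa stood at -0.40 with an adjusted p of 0.0563 in edgeR. Of 13 heme synthesis genes 4 rose and 0 fell. Alad, an early enzyme of the pathway, was at 29.4, 34.6 and 31.5 CPM against 19.4 and 20.9 CPM. With offsets 1 heme gene was called.

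Promoter sequences, taken from RefSeq on GRCm38.p6, were searched for the core of the NRF1 site. A window of 300 bases, 250 before and 50 after the annotated start, was matched by symbol for 11654 of 16699 genes tested. CGCATGCG, a palindrome and so the same on both strands, stood in 5.3% of genes called higher, 5.1% of genes called lower and 4.0% of all genes tested. The looser CGCANGCG, which includes every CGCATGCG match and was searched on both strands, stood in 22.1%, 19.3% and 18.1%. Of 467 genes with CGCATGCG, 70 were called higher (15.0%) and 44 lower (9.42%), and of 11187 genes without it 1251 were higher (11.2%) and 817 lower (7.30%). The median log2 fold change was 0.00 with the motif and 0.03 without. A match describes these letters in this window and is not a bound site.

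Stretches of 120 bases upstream of the start are shown for Bax and Pold2, which rose, and Gabpa, which fell, to show the motif in promoters of genes called in opposite directions. They are the most abundant of the genes named here that were called and hold the motif before the start. Uqcrc1 is more abundant, but its motif lies after the start and is not shown. Capitals mark CGCATGCG. The Bax stretch lies at chr7:45466899-45467018 on the minus strand, that of Pold2 at chr11:5878338-5878457 on the minus strand and that of Gabpa at chr16:84835004-84835123 on the plus strand. In Bax the motif begins 63 bases before the start, in Pold2 145 bases and in Gabpa 8 bases.
Bax: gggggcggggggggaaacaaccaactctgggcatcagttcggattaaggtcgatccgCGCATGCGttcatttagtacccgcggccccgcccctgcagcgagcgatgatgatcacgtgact
Pold2: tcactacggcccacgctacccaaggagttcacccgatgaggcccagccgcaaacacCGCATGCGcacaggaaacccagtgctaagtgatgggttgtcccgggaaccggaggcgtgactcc
Gabpa: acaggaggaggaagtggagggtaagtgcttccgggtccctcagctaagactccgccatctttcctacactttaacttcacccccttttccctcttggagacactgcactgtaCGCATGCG

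The genes of protein synthesis and degradation were higher in NRF1 OE. Of 88 cytosolic ribosomal protein genes, 47 rose and 0 fell, with a median log2 fold change of 0.39. Rps14, of the small subunit, was at 1609, 2066 and 1712 CPM against 1006 and 1048 CPM, a log2 difference of 0.81 ± 0.13 (SE). Of 80 mitochondrial ribosomal protein genes, 22 rose and 0 fell, with a median of 0.30, and Mrps34 was at 29.1, 37.5 and 32.9 CPM against 18.4 and 22.1 CPM. Of 47 proteasome genes, 16 rose and 0 fell, with a median of 0.32, and Psmb3, a subunit of the catalytic core, was at 234, 301 and 251 CPM against 163 and 175 CPM. All of these genes were higher in every NRF1 OE library than in both Ctrl libraries. With offsets, 19 cytosolic and 19 mitochondrial ribosomal protein genes and 9 proteasome genes were called higher, and 1, 1 and 0 lower, and the medians were smaller at 0.13, 0.13 and 0.12. Rps14 and Psmb3 were among them, at 0.35 and 0.51, and Mrps34 was not. Ribosomal protein genes have many processed pseudogene copies, so their counts are uncertain where reads match several copies.

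Among 37 aminoacyl-tRNA synthetases, which charge tRNAs, 8 rose and 2 fell, with a median log2 fold change of 0.04, and with offsets 2 rose and 0 fell. Ears2, the mitochondrial glutamyl enzyme, was at 35.6, 38.5 and 32.3 CPM against 20.6 and 24.7 CPM and rose with and without offsets, by 0.66 and 0.64. Of 36 mitochondrial import and chaperone genes, 10 rose and 3 fell, and with offsets 6 rose and 1 fell. Timm13, a small chaperone of the intermembrane space, rose by 0.70 ± 0.15 (SE), with groups that did not overlap. In the ATF4 stress response, 6 of 28 genes rose and 0 fell, with a median of 0.23, while with offsets 3 rose and 1 fell and the median was -0.04. Asns, the asparagine synthetase, was at 570, 603 and 490 CPM against 408 and 443 CPM, with a difference of 0.38 that was 0.42 with offsets and called in both fits.

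Among enzymes of carbon and sterol metabolism, glycolysis and cholesterol synthesis had the larger shares of genes called higher. Of 25 glycolysis genes, 8 rose and 1 fell, with a median log2 fold change of 0.26. Pkm, the pyruvate kinase, was at 2609, 3440 and 2982 CPM against 1972 and 2089 CPM, and Aldoa, the aldolase, at 1038, 1338 and 1147 CPM against 796 and 854 CPM. With offsets 0 glycolysis genes were called by edgeR, 11 had an unadjusted p under 0.05, and Pkm and Aldoa stood at 0.15 and 0.07. Of 28 genes of pyruvate oxidation and the TCA cycle, 4 rose (14.3%, beside 10.2% of all genes) and 0 fell, with a median of 0.13, among them Idh2 and Mdh2, by 0.57 and 0.45. With offsets 4 TCA cycle genes rose as well, but neither Idh2 nor Mdh2. Of 25 cholesterol synthesis genes, 9 rose and 0 fell, with a median of 0.32. Ebp, a sterol isomerase, was at 30.6, 34.8 and 34.1 CPM against 21.6 and 22.6 CPM. Ebp was called in the offset fit as well, in which 3 cholesterol genes were higher.

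Some germ cell genes were higher in NRF1 OE. Of 22 reporter and germ cell genes, 9 rose (40.9%, beside 10.2% of all genes) and 0 fell. The median log2 fold change was 0.23, and 0.18 with offsets, where 3 rose and 0 fell. Dppa3 (Stella), the second reporter gene of the line, was at 162, 144 and 124 CPM with NRF1 OE and at 79.1 and 81.1 CPM with Ctrl. All NRF1 OE libraries were above both Ctrl libraries, by 0.84 ± 0.13 on the log2 scale (adjusted p = 0.0317 in edgeR). Leaving out any 1 library gave a difference between 0.75 and 0.93. On the 5 BV- libraries alone the adjusted p of Dppa3 was 0.0806 in edgeR, not called, and 0.000456 in DESeq2. With GC and length offsets on all 9 libraries the difference was 0.93 with an adjusted p of 0.00499 in edgeR. Nanos3, an RNA-binding protein that protects PGCs from cell death, was at 8.85, 8.91 and 7.34 CPM against 4.47 and 3.79 CPM. Dnd1, which shields germ cell mRNAs from microRNAs, was at 26.1, 31.1 and 25.9 CPM against 15.2 and 16.1 CPM. The homeobox gene Rhox6 was at 15.8, 15.5 and 8.29 CPM against 3.66 and 5.45 CPM, a difference of 1.52 ± 0.33 on the log2 scale. Groups did not overlap for any of these genes. Dppa3, Dnd1 and Rhox6 were the 3 genes of the group called with offsets, and Nanos3 stood at 0.55 with an adjusted p of 0.104 in edgeR.

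The genes that specify PGCs did not move together. Tfap2c, at 60.4, 65.9 and 49.8 CPM against 44.3 and 42.8 CPM, rose by 0.43 ± 0.13 (SE). With offsets it stood at 0.21 and was not called, with an adjusted p of 0.262 in edgeR. Prdm1 was at 62.0, 42.4 and 59.8 CPM against 58.6 and 57.3 CPM, with an adjusted p of 0.726, and Prdm14 at 24.1, 25.9 and 23.8 CPM against 25.8 and 26.3 CPM, with an adjusted p of 0.662, both in edgeR. For Prdm1 the groups overlapped. The later germ cell genes Dazl and Ddx4, RNA-binding proteins of differentiating germ cells, had log2 fold changes of -0.70 and -0.83. Their adjusted p were 0.0787 and 0.0506 in edgeR. Every NRF1 OE library was below both Ctrl libraries for each, an order that 27.6% of all genes tested shared. With offsets they stood at -0.25 and -0.54, with adjusted p of 0.416 and 0.101 in edgeR. Kit, a receptor of migrating PGCs, lay between 145 and 181 CPM in all BV- libraries.

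**Figure D4:**
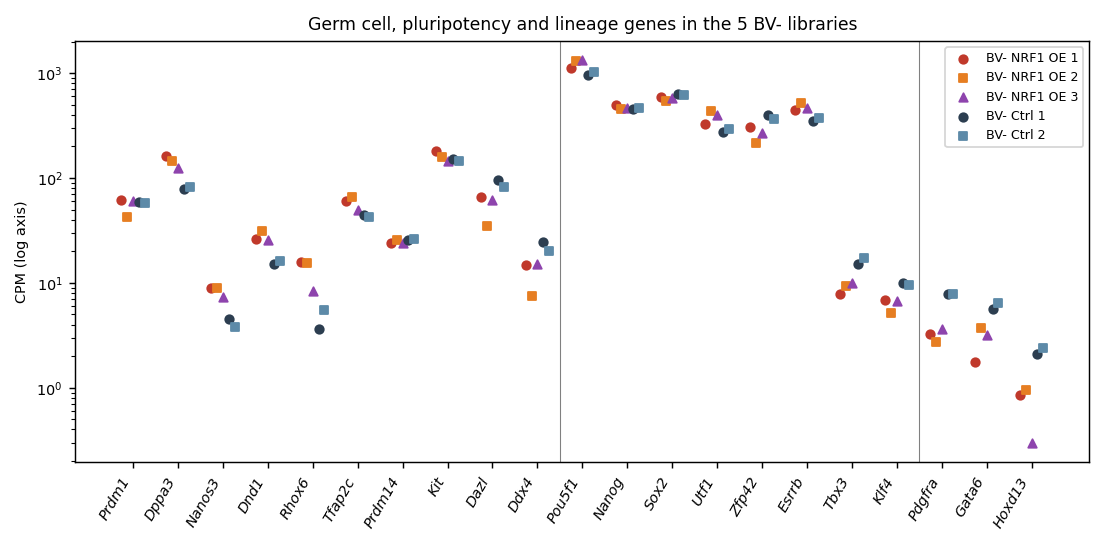
CPM on a log axis of germ cell genes (left), pluripotency genes (middle) and genes of mesoderm, endoderm and posterior identity (right), 1 point per BV- library. Dppa3, Nanos3, Dnd1 and Rhox6 are higher in all 3 NRF1 OE libraries than in both Ctrl libraries, Prdm1 overlaps, and Pdgfra, Gata6 and Hoxd13 are lower.

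Pluripotency genes were called in both directions. Of 10 core genes 1 rose and 1 fell (10% each), near the shares over all genes tested, 10.2% higher and 6.98% lower. Of 15 naive genes 3 rose and 3 fell (20% each). The median log2 fold changes were -0.12 for core and -0.09 for naive genes. With offsets 0 core genes rose and 1 fell, and 1 naive gene rose and 3 fell. The naive gene that rose with offsets was Dppa3, which is counted among the germ cell genes as well. Zfp42 (Rex1), a marker of naive cells, was at 308, 216 and 270 CPM against 397 and 367 CPM and fell by 0.53 on the log2 scale. Tbx3, a naive network factor, was at 7.83, 9.36 and 10.1 CPM against 15.3 and 17.2 CPM, a difference of -0.84 ± 0.15 (SE), and Klf4 was at 6.86, 5.16 and 6.75 CPM against 10.0 and 9.45 CPM. The fall of all 3 was called with offsets too, at -0.44, -1.01 and -0.91. Utf1, a chromatin factor of pluripotent cells, was at 329, 438 and 402 CPM against 273 and 294 CPM, and Klf2 at 147, 173 and 175 CPM against 125 and 126 CPM. Their rises turned to -0.04 and -0.08 with offsets. Of 15 formative and primed epiblast genes, 0 were called by edgeR in either direction, and with offsets 1 fell. In it 5 genes had an unadjusted p under 0.05, and DESeq2 on the 5 BV- libraries called 0 higher and 1 lower. Pou3f1 and Zic5 were nearest to the threshold there, at 0.65 and -0.62 with adjusted p of 0.0530 and 0.0576 in edgeR and unadjusted p under 0.05.

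Markers of differentiated lineages ranged widely in level, and 5 genes fell and 4 rose over the lists of this paragraph. By list, 0% to 12.5% of genes rose and 0% to 12% fell, beside 10.2% and 6.98% of all genes tested. With offsets the shares over all genes were 3.62% and 1.92%. Of 20 primitive streak and mesoderm genes tested of 26, 0 rose and 2 fell, and with offsets 3 fell. Pdgfra, a receptor of mesoderm and primitive endoderm, was at 3.25, 2.73 and 3.61 CPM against 7.88 and 7.85 CPM, a log2 difference of -1.29 ± 0.20 (SE). Gata6, an endoderm and cardiac factor, was at 1.75, 3.68 and 3.20 CPM against 5.67 and 6.36 CPM. Both falls were called with offsets, at -1.05 and -1.36. Of 25 endoderm genes 2 rose and 3 fell, and with offsets 1 fell. Those that fell without offsets included the endocytic receptor gene Cubn and its adaptor Dab2, which fell by 1.07 and 0.71 on the log2 scale. Cubn was at 50.4, 82.6 and 74.9 CPM against 177 and 113 CPM, and neither gene was called with offsets. Apoe, a lipid carrier, and Krt18 were the 2 that rose. Apoe was at 793, 1017 and 843 CPM against 625 and 635 CPM, a difference that was -0.01 with offsets. Of 17 neuroectoderm genes 1 was called, Sox4, which fell by 0.43, and with offsets 2 fell. Among 17 blood and endothelial genes 0 were called by edgeR, 1 had an unadjusted p under 0.05, and DESeq2 on the 5 BV- libraries called 0 higher and 0 lower. Actc1 among 13 cardiomyocyte genes and Krt7 among 8 trophoblast genes rose by 1.07 and 2.03. Krt7 was at 1.69, 1.92 and 0.770 CPM against 0.315 and 0.374 CPM, with 5 and 7 reads in the Ctrl libraries. It was not called with offsets, with an adjusted p of 0.0519 in edgeR.

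Hox genes, which mark position along the body axis, were at the edge of detection, with 12 of 39 tested. Of these, 4 fell (33.3%, beside 6.98% of all genes) and 0 rose, with a median log2 fold change of -0.68 that was -0.93 with offsets. Hoxd13 was at 0.843, 0.958 and 0.296 CPM against 2.08 and 2.40 CPM, and Hoxa10 at 0.542, 0.810 and 1.01 CPM against 1.64 and 2.08 CPM. The NRF1 OE libraries lay below both Ctrl libraries for each. Hoxd13 and Hoxa10 were called with offsets as well, and 4 Hox genes in all. DESeq2 on the 5 BV- libraries called 0 Hox genes, and edgeR on genes with a mean of at least 10 counts called 2 lower. The first NRF1 OE library stood lowest over the group, with a median of -1.09 from the Ctrl mean, and the third at -0.23.

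Signalling genes changed in small numbers, in shares mostly near those over all genes tested, 10.2% higher and 6.98% lower. Of 32 BMP pathway genes, which carry the signal that induces PGCs in the embryo, 1 rose and 3 fell, or 3.12% and 9.38%, with a median log2 fold change of -0.14. Bmpr1a, a type 1 receptor, was at 78.3, 45.5 and 63.6 CPM against 111 and 104 CPM, and Bmpr2, the type 2 receptor, at 24.5, 11.7 and 27.3 CPM against 46.4 and 34.8 CPM. Their differences were -0.78 ± 0.17 and -0.93 ± 0.26 (SE), and -0.26 and -0.25 with offsets, past the threshold only without. Smad5, a signal transducer of these receptors, fell by 0.45, and Smad6, an inhibitor, rose by 0.66. Neither was called with offsets, where Id1 and Smad7 were the 2 members called lower. The ligands Bmp2, Bmp4, Bmp7 and Bmp8b were not called, and Bmp2 lay between 0.0737 and 0.427 CPM in the 5 libraries.

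Of 44 WNT pathway genes 4 rose (9.09%) and 3 fell (6.82%), near the shares over all genes, and with offsets 1 rose and 0 fell. Fzd2, a receptor, was at 39.3, 67.9 and 43.3 CPM against 25.3 and 27.1 CPM, a log2 difference of 0.93 ± 0.27 (SE) that was 0.63 without the second NRF1 OE library and 0.60, not called, with offsets. Dvl2, which passes on the receptor signal, rose by 0.54 and was also called with offsets at 0.29, and the coreceptor gene Lrp6 fell by 0.72. Among 32 Notch pathway genes 2 rose (6.25%) and 1 fell (3.12%), and with offsets 2 rose. Hes6, an inhibitor of Hes1, was at 23.7, 34.1 and 24.6 CPM against 11.8 and 15.8 CPM. Among 16 Nodal pathway genes 3 rose (18.8%) and 0 fell, and with offsets 1 rose and 1 fell. Lefty1, a feedback inhibitor, was at 192, 258 and 233 CPM against 112 and 157 CPM, and Foxh1, a transcriptional partner of the Smads, at 59.7, 76.0 and 62.3 CPM against 37.4 and 45.7 CPM. Furin, which cleaves the Nodal precursor, rose by 0.64 and was the member called higher with offsets. Of 25 FGF and ERK feedback genes 1 rose (4%) and 3 fell (12%), and with offsets 0 rose and 1 fell. The inhibitors Spred1 and Spry4 fell by 0.71 and 0.49, and Spry4 was called with offsets as well, at -0.53. Of 28 AP-1 and immediate early genes 4 rose (14.3%), among them Srf and Jund at 0.49 and 0.48, and 2 fell (7.14%), and with offsets Klf4 was the member still called.

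Of 44 DNA replication genes 11 rose (25%) and 4 fell (9.09%), and with offsets 7 rose and 0 fell. Mcm5, of the replicative helicase, was at 926, 1220 and 1007 CPM against 702 and 739 CPM, a log2 difference of 0.54 ± 0.12 (SE) that was 0.38 with offsets and called in both fits. Pold1, the catalytic subunit of polymerase delta, was at 341, 454 and 395 CPM against 249 and 260 CPM. Of 37 cyclins, kinases and inhibitors, 3 rose (8.11%) and 4 fell (10.8%), beside 10.2% and 6.98% of all genes, and with offsets 0 rose and 1 fell. Ccnd2 (cyclin D2) was at 15.0, 12.01 and 20.8 CPM against 29.7 and 35.2 CPM, a difference of -1.02 ± 0.19 that was -0.74 with offsets. E2f1, a driver of S phase genes, and Cdc20, an activator of mitotic exit, rose by 0.55 and 0.50, and Rbl1, a brake on E2F, fell by 0.63. None of these 3 was called with offsets.

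Apoptosis regulators moved in both directions. Of 15 BCL2 family genes 5 rose and 1 fell, and with offsets 1 rose and 1 fell. Bok, an effector of mitochondrial permeabilization, was at 31.6, 42.5 and 36.6 CPM against 19.3 and 20.7 CPM, and rose by 0.88 ± 0.15 on the log2 scale (SE), or by 0.38 with offsets. Bax and Bak1, the other effectors, rose by 0.52 and 0.55 and stood at 0.01 and 0.15 with offsets, not called. Pmaip1 (Noxa), a p53 target that promotes cell death, was at 15.4, 12.4 and 15.5 CPM against 23.8 and 27.1 CPM and fell by 0.82, while Bbc3 (Puma), with the same role, was at 34.4, 38.6 and 41.2 CPM against 24.6 and 29.6 CPM and rose by 0.49. Of 27 p53 genes 2 rose (7.41%) and 4 fell (14.8%), and with offsets 0 rose and 2 fell. Mdm4, an inhibitor of p53, fell by 0.98. The falls of Pmaip1 and Mdm4 were called with offsets, at -0.49 and -0.51.

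Genes of contractile and mesenchymal cells were higher. Of 35 tested, 11 rose and 0 fell, with a median log2 fold change of 0.27, and 5 rose with offsets. Myl9, a myosin light chain, was at 91.9, 103 and 97.1 CPM against 50.7 and 57.4 CPM, a log2 difference of 0.85 ± 0.11 (SE). Cnn2, a calponin, was at 296, 337 and 299 CPM against 187 and 183 CPM, and Zyx, an adhesion protein, at 101, 130 and 109 CPM against 63.1 and 74.0 CPM. The skeletal actin gene Acta1 was at 7.59, 13.2 and 5.63 CPM against 2.46 and 3.74 CPM. All 4 were higher in every NRF1 OE library and were called in both fits. Of 37 collagen genes 2 rose and 0 fell, and of 48 other matrix genes 5 rose (10.4%) and 2 fell. With offsets 0 collagen genes were called by edgeR, with 6 at an unadjusted p under 0.05, and of the other matrix genes 0 rose and 1 fell. Col18a1 was at 838, 1069 and 974 CPM against 658 and 703 CPM. Adamts9, a matrix protease, fell from 38.3 and 35.5 CPM in Ctrl to 23.0, 15.0 and 21.9 CPM in NRF1 OE, and was called with offsets at -0.70.

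Zfp genes and the listed chromatin regulators were called lower more often than higher. Of 354 Zfp genes, which encode zinc finger proteins, 57 fell and 16 rose, with a median log2 fold change of -0.41 that was -0.09 with offsets, where 10 fell and 4 rose. The median GC content of this group was 44.1%, beside 49.8% over all genes tested. Zfp936 was at 8.43, 4.05 and 8.65 CPM against 21.2 and 17.6 CPM, a difference of -1.45 ± 0.28 (SE) that was -0.999 with offsets. Of 39 chromatin and other long-gene regulators, 7 fell and 0 rose, with a median of -0.59 that was -0.17 with offsets. The median transcript length of these genes was 8714 bases, and the second NRF1 OE library stood at -1.20 from the Ctrl mean while the others stood at -0.30 and -0.38. Atm, the DNA damage kinase, was at 66.9, 30.8 and 55.1 CPM against 111 and 87.4 CPM, and Chd2, a chromatin remodeller, at 68.0, 38.5 and 67.6 CPM against 109 and 89.2 CPM. These 2 were the members called with offsets, at -0.38 and -0.46.

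Of 25 nuclear long noncoding RNAs 5 fell and 0 rose. Tug1 was at 110, 53.6 and 82.9 CPM against 179 and 138 CPM, and Snhg11 at 21.2, 17.3 and 21.1 CPM against 43.7 and 29.9 CPM. With offsets 0 were called by edgeR, with 6 at an unadjusted p under 0.05. Of 58 splicing factors 7 rose and 9 fell, and with offsets 6 rose and 3 fell. Hnrnpa3 was at 48.2, 24.6 and 38.4 CPM against 71.5 and 71.2 CPM and Tra2a at 186, 115 and 152 CPM against 290 and 223 CPM, and both falls were called with offsets, at -0.42 and -0.51. Snrpd2, a core snRNP protein, rose by 0.51 without offsets only.

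RNAs without a poly(A) tail, which the oligo(dT) step should leave behind, did not move as 1 group. Rn18s-rs5, a ribosomal RNA repeat, was at 7373, 10983 and 3327 CPM with NRF1 OE and at 1573 and 2815 CPM with Ctrl. Rn7sk, the RNA of the 7SK particle, was at 9.39, 11.9 and 2.19 CPM against 0.630 and 1.44 CPM, and Rpph1, the RNA of RNase P, at 7.10, 11.5 and 2.43 CPM against 0.693 and 1.92 CPM. The first and second NRF1 OE libraries were the highest for each. Of 16 short structured noncoding RNAs tested 4 rose and 0 fell, with a median log2 fold change of -0.02 and values down to -2.80. Of these 16, 6 lay above both Ctrl libraries in every NRF1 OE library and 4 below both. Over all genes tested the shares were 29.4% and 27.6%, so these counts do not set the group apart. With offsets edgeR called 0 of 14, with 8 at an unadjusted p under 0.05, and the median was -0.22. Of 30 replication-dependent histone genes 4 rose and 0 fell, with a median of 0.99, and with offsets 1 rose, with a median of 0.58. H2bc12 was at 1.38, 2.50 and 1.30 CPM against 0.630 and 0.320 CPM. The part of RNA selection or RNA quality in the results was not tested.

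The largest changes at 10 CPM or more are plotted by library. Kif1a, a kinesin of axonal transport, led the rises at 28.5, 56.3 and 25.1 CPM against 9.33 and 10.6 CPM, a log2 difference of 1.87 ± 0.34 (SE) that was 1.80 with offsets. Pim2, a kinase that promotes cell survival, was at 60.1, 126 and 70.2 CPM against 31.3 and 43.1 CPM. Ap3b2 (a neuronal adaptor subunit), Car14 (a carbonic anhydrase), Ism2, Wfdc2, Actc1, Scand1 and Selenom (a selenoprotein) rose by 1.03 to 1.25 and were called in both fits. Card19 and Krt18 rose by 1.03 and 1.02 and were not called with offsets. Krt18, a keratin of simple epithelia, was at 40.2, 65.1 and 26.2 CPM against 19.7 and 23.3 CPM, and its difference was 0.60 without the second NRF1 OE library.

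Halr1, a noncoding RNA beside the HoxA cluster, led the falls at 10.8, 8.25 and 18.9 CPM against 42.5 and 35.8 CPM, a log2 difference of -1.62 ± 0.35 (SE) that was -1.59 with offsets. Zscan4d, of a gene cluster that marks cells resembling the early cleavage embryo, was at 9.21, 4.49 and 5.51 CPM against 16.1 and 16.3 CPM. Its near-identical copies make its count uncertain. Tet2, an enzyme of DNA demethylation, was at 23.5, 10.4 and 23.8 CPM against 51.2 and 43.2 CPM, a difference of -1.28 ± 0.27 that was -0.85 with offsets. Slfn9, Zfp936, Dpp4 (a membrane peptidase), Cnpy1, Nfat5 (a factor of the osmotic response) and Tex13b fell by 1.16 to 1.45 and were called in both fits. Scai, Ago3 and Apob were called without offsets only. Apob, which encodes a lipoprotein, was at 8.07, 8.10 and 7.29 CPM against 30.6 and 11.8 CPM, so the Ctrl libraries themselves differed, and its log2 difference of -1.43 was -0.59 without the first Ctrl library. Because the sources do not state whether counting used the strand of the reads, the values of Car14, Actc1, Scand1, Dpp4, Tet2 and Scai, which overlap a gene on the opposite strand, are uncertain. The same holds for 66 of the 171 genes chosen for naming, Nrf1, Gabpa, Rps14, Dnd1, Atp5md and Polg among them.

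**Figure D5:**
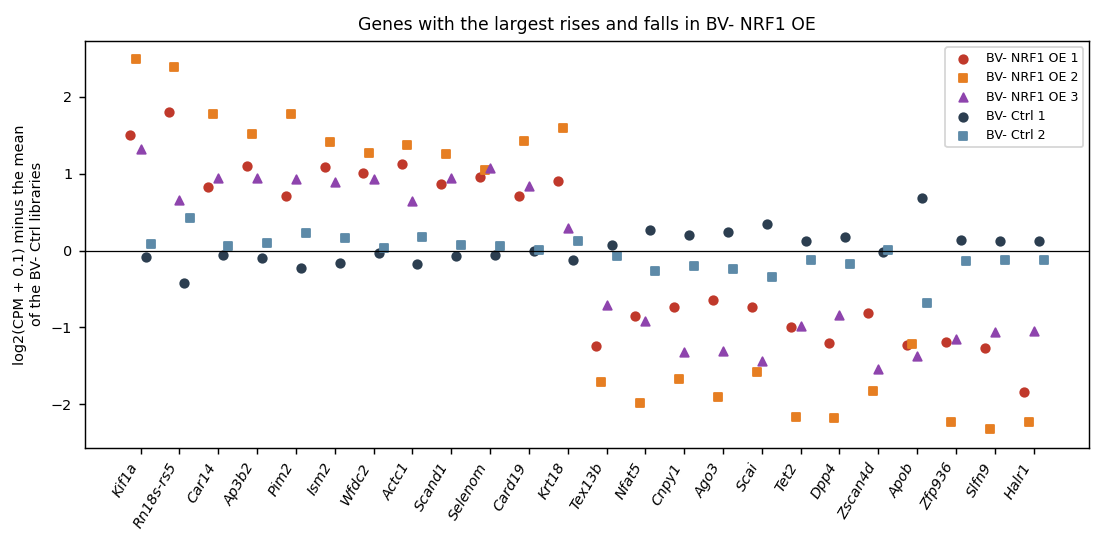
log2(CPM + 0.1) minus the mean of the BV- Ctrl libraries for the 12 largest rises and 12 largest falls among called genes at 10 CPM or more, 1 point per BV- library. The NRF1 OE libraries lie on 1 side of both Ctrl libraries for every gene shown, since this was part of the choice, and the second NRF1 OE library is farthest from Ctrl for most.

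Genes that the study names, for BV+ cells or for whole embryoid bodies, were read in BV- cells. The study reports higher Dppa3, Prdm14 and Tfap2c after Nrf1 activation from real-time RT-PCR on whole embryoid bodies. Of 20 such genes, 3 rose (Dppa3, Fzd2 and Tfap2c) and 0 fell, beside 10.2% of all genes called higher. Of these 3, Dppa3 alone was called with offsets. Atp5e, an ATP synthase subunit, was at 61.9, 75.5 and 51.6 CPM against 42.9 and 45.1 CPM, with an adjusted p of 0.0518 in edgeR. Igfbp5, an IGF-binding protein, was at 11.4, 12.9 and 11.8 CPM against 6.24 and 10.2 CPM, with an adjusted p of 0.0754. Lin28b, which blocks let-7 maturation, was at 21.5, 14.2 and 21.4 CPM against 26.7 and 22.4 CPM, with an adjusted p of 0.172, both in edgeR. Bmp1, Bmp4, Bmp7, Notch3, Jun, Junb, Cdh2, Cox7a2 and Ccdc28b had log2 fold changes from -0.34 to 0.47 and were not called.

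Of 460 genes that the study lists as bound by NRF1 and regulated in BV+ cells, 458 were tested in BV- cells. There 58 rose (12.7%) and 120 fell (26.2%), beside 10.2% and 6.98% of all genes tested. The median log2 fold change was -0.11. With offsets 12 of 457 rose and 21 fell, beside 3.62% and 1.92% of all genes, with a median of -0.08. The list was chosen on the BV+ libraries of this series, which share the fit, and it pools genes that rose and genes that fell there. The counts are therefore no test of NRF1 binding. Myl9, Cnn2 and the fatty acid transporter gene Slc27a3 rose, and Neto2, an auxiliary subunit of glutamate receptors, fell from 6.87 and 6.09 CPM to 2.71, 2.50 and 2.84 CPM.

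The effect of NRF1 OE in BV- cells was set against that in BV+ cells by the difference of the log2 fold changes in the same fit. edgeR called 0 genes for this difference (0.0% of 16903), with 932 at an unadjusted p under 0.05 (5.51%), and DESeq2 on the 9 libraries called 23. In BV+ cells 1054 genes were called higher (6.24%) and 301 lower (1.78%). Group medians are given side by side without a test. For contractile and mesenchymal genes the median log2 fold change was 0.27 in BV- and 0.94 in BV+ cells, for collagens 0.05 and 0.59, and for BMP pathway genes -0.14 and 0.35. For complex I genes it was 0.44 in BV- and 0.42 in BV+ cells, for cytosolic ribosomal proteins 0.39 and 0.32, and for DNA replication genes 0.13 and 0.03. The BV+ NRF1 OE libraries had GC trends of 0.333 and -0.005 and the BV+ Ctrl libraries of -0.602 and -0.599, so the split by GC content was present in both populations.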

How the data were processed

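RNA-seq with poly(A) selection was compared in 3 BV- NRF1 OE and 2 BV- Ctrl libraries, grouped by their sample labels. The authors trimmed reads with Cutadapt 1.9.1, aligned them with HISAT2 2.0.1 to GRCm39 and counted reads per Ensembl 107 gene with HTSeq 0.6.1. Whether counting used strand is not given in the sources used here. The files hold these raw counts and FPKM values that the authors computed from them. FPKM served only as group means in tables, and gene names came from the files.

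Counts were tested with edgeR 4.0.16 in R 4.3.3: TMM factors, filterByExpr, and the quasi-likelihood test with Benjamini-Hochberg adjustment over 16903 of 56691 genes. One fit held all 9 libraries with a term per group, so the 4 groups shared 1 estimate of the spread (5 residual degrees of freedom). Total counts were 13702162 to 19625460 per library, so a gene at 1 CPM rests on few reads. Replicates differed beyond sampling noise (chi-square per degree of freedom 6.59 to 34.7 within BV- groups), so none was counted as a duplicate.

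The offset fit used mgcv 1.9.3 smooths of each library over transcript GC content and length (GENCODE vM21 gene models, matched by Ensembl gene ID for 98.6% of genes tested). The script was tested on simulated counts with known fold changes. Alternatives were other scalings and filters, thinned counts, DESeq2 1.42.0, the 5 BV- libraries alone, a replicate block, and each library left out.

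Genes named are the 12 largest rises and falls among called genes at a mean of 10 CPM or more whose groups did not overlap, up to 4 members of each of 49 gene lists with the smallest adjusted p at 1 CPM or more, Nrf1, the reporter genes and other genes the study names. Nanog, Sox2, Dazl, Ddx4 and Kit come from the cell type markers, and Id1 and Smad7 were named after their values were seen. The comparison, the lists and their members were chosen with earlier results of these data known. A gene that the naming rule selects is not reported here.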

Additional observations from a re-analysis of the deposited data

Results flagged for a closer look

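Among the 20 genes that the study names, 3 had opposite orders in BV- and BV+ cells. For these 3 genes every NRF1 OE library lay below both Ctrl libraries in BV- cells and above them in BV+ cells. The share of all genes tested with opposite orders is not given here. Non-overlap is common, since in BV- cells alone 29.4% of all genes lay above and 27.6% below. The 3 genes were picked for this order, so their unadjusted p are no independent test of it. The difference between the effects was tested in the same edgeR fit and passed the adjusted threshold for none of them.

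Bmp2, a BMP ligand, was at 0.241, 0.0737 and 0.118 CPM in BV- NRF1 OE and at 0.252 and 0.427 CPM in BV- Ctrl libraries. In BV+ cells it was at 3.55 and 2.18 CPM with NRF1 OE and at 0.721 and 0.997 CPM with Ctrl. The log2 fold changes were -1.18 and 1.72, a difference of -2.90 (-2.898) with an unadjusted p of 0.00358 and an adjusted p of 0.571 in edgeR. The BV- levels of Bmp2 rest on few reads.

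Bmp4, the ligand that induces PGCs, was at 4.15, 2.87 and 4.09 CPM against 4.22 and 5.18 CPM in BV- cells, and at 8.19 and 5.33 CPM against 3.997 and 5.14 CPM in BV+ cells. The effects were -0.34 and 0.56 on the log2 scale and differed by -0.90 (-0.8984), with an unadjusted p of 0.0332 and an adjusted p of 0.825 in edgeR.

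Lin28b, an RNA-binding protein, was at 21.5, 14.2 and 21.4 CPM against 26.7 and 22.4 CPM in BV- cells, and at 66.2 and 52.3 CPM against 44.6 and 50.4 CPM in BV+ cells. The effects were -0.36 and 0.32 and differed by -0.68 (-0.6783), with an unadjusted p of 0.028 and an adjusted p of 0.815 in edgeR. With GC and length offsets the BV- effect of Lin28b was 0.18.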

How the results depend on the processing

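The counts of called genes depended on the libraries and on the fit. Against 2910 genes, 1731 higher and 1179 lower, leaving out 1 library gave 0 to 5847 genes, 0 to 3013 higher and 0 to 2834 lower. GC and length offsets gave 923 genes (603 and 320), edgeR on the 5 BV- libraries gave 0 (0 and 0; smallest adjusted p 0.0806), no filter gave 4392 with 2432 lower, DESeq2 on 9 libraries gave 1984 lower and upper-quartile factors 1790 lower. An added fold limit of 0.58 left 1562 genes (640 and 922). The share of higher genes among those called was 59.5%, and 45.1% with scaling by library size alone (1418 and 1723) and 44.6% with no filter. At the study's threshold, against 2703 genes (969 and 1734), offsets gave 1169 (472 and 697), and leaving out 1 library gave 1414 to 4086 genes, with 418 to 1536 higher and 793 to 2550 lower. For the difference between BV- and BV+ effects, against 0 genes, DESeq2 on 9 libraries gave 23, no filter 108, and leaving out 1 library up to 33. The cause was not tested.

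The replicate block, for which only 2 numbers are shared, gave 0 genes (0 and 0; smallest adjusted p 0.107), and block and offsets together gave 2 (1 and 1), 1314 at the study's threshold (579 and 735) and 1 for the difference between populations. Same-numbered libraries correlated in their deviations at 0.204 and 0.243, with 2 pairs, so the pairing was not established.

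Of 144 named genes called, 144 were still called with DESeq2 size factors, 140 with library size alone, 126 with DESeq2 on 5 libraries, 67 with offsets and 12 without the third NRF1 OE library. Signs turned as follows. With offsets: Pou5f1 -0.13, Utf1 -0.0387, Klf2 -0.0829, Apoe -0.0091, Cox7a2 -0.0035, Uqcr11 -0.015, Jun -0.13, Junb -0.0987, Ccdc28b -0.30, Prdm1 0.19, Lin28b 0.18, mt-Nd5 0.12 and Rian 0.29. With offsets and block: Pou5f1 -0.20, Utf1 -0.0665, Klf2 -0.12, Bax -0.0207, Ccdc28b -0.23, Prdm1 0.14, Lin28b 0.11, mt-Nd5 0.16 and Rian 0.43. With block alone: Cdh2 -0.0432. With library size alone: Nanog -0.015 and Cdh2 -0.0014, and with upper-quartile factors Bmp7 0.0038. Leaving out 1 library gave ranges that cross 0, from -0.19 to 0.22 for Bmp7, -0.11 to 0.20 for Cdh2, -0.0155 to 0.0302 for Nanog, -0.18 to 0.0441 for Prdm1, -0.18 to 0.44 for Jun and -0.0627 to 0.27 for Ccdc28b.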
